A study of Mus musculus with 9 samples.

Results

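The genes described here are the glycolytic enzymes and their isoforms, 30 mouse genes taken by symbol. They are the enzymes of each step from hexokinase to lactate dehydrogenase, the bifunctional Pfkfb enzymes, the pyruvate dehydrogenase subunit Pdha1 and its 4 kinases. On the bead array, 26 of the 30 have an annotated probe, and 23 were above background on at least 3 arrays and were tested among 10251 genes. Gpi1, Eno1, Ldhb and Pfkfb1 have no annotated probe and are not analysed here. Bpgm and Pfkfb3 were not above background on any array and Pdk2 on DE 1 and DE 2 alone, so these 3 were not tested. The 23 tested genes therefore do not stand for all 30, and the isomerase step and the ubiquitous enolase are among those without a value.

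Glycolysis turns glucose into pyruvate and is heavily used by pluripotent stem cells. Hexokinase traps glucose in the cell, phosphofructokinase commits it to the pathway, and pyruvate is either reduced to lactate by lactate dehydrogenase or passed to the mitochondria through the pyruvate dehydrogenase complex, which its kinases switch off. Most steps have several isoforms from separate genes that differ in tissue, in affinity and in how they are controlled, so the choice of isoform can change along a lineage.

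The arrays hold 3 groups of 3: mouse ES cells, definitive endoderm made in culture (DE) and anterior foregut made in culture (AFE). Per the labels, the ES cells carry no reporter and are of the 129P2/OlaHsd background, AFE cells are 129X1/SvJ, and DE cells came from R1 ES cells, a cross of 129X1/SvJ with 129S1/SV-+p+Tyr- cKitlSl-J/+. The labels name the lines AV3, p2lac40, Sox17GFP and Pax9Venus without saying which array holds which. Cells were kept on mouse embryonic fibroblasts with LIF, and feeders were depleted before differentiation with the ROCK inhibitor Y-27632 at 10 µM. From day 2, endoderm was induced by 5 nM GSKiXV, a GSK3 inhibitor, and 5 µM IDE-1, an endoderm inducer, and cells replated on day 6 received 500 nM A83-01 and 100 nM LDN193189, which block TGF-beta family and BMP receptors. All cells were sorted by flow cytometry with a gate that the sources used here do not give, so strain, line, sort and stage cannot be told apart. Nothing states that replicates were separate cultures, and the p-values then describe only how far these arrays scatter, which can be technical.

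Most stage markers followed the labels. All 8 tested pluripotency genes, among them Pou5f1 and Nanog, fell in DE and in AFE against ES, and all 8 tested endoderm genes, among them Sox17 and Foxa2, rose in DE. Pax1 and Eya1, genes of the pharyngeal foregut, were above background on all AFE arrays and on no other, Pax9 on 2 AFE arrays and Nkx2-1 on 1. Isl1 and Sox2 from the same list were not confined to AFE: Isl1 was above background on all 9 arrays and rose at both transitions, and Sox2, which ES cells express, was on all ES and AFE arrays and fell by 1.26 in AFE against ES. AFE 2 kept more of the pluripotency signal, with all 8 markers above background at a mean of 6.99, against 5.72 and 5.77 on AFE 1 and AFE 3. DE 3 stood apart from DE 1 and DE 2. It read 7 of the 23 members at least 2-fold lower and 2 at least 2-fold higher than the mean of the other DE arrays, against 8.12% and 7.53% of all genes, with a median member difference of -0.46. Its 8 tested blood and endothelium markers, of 11 listed, averaged 10.03 on the log2 scale against 6.12 to 6.27 on the other DE arrays, and Cdh5 and Tie1, 2 endothelial genes, were above background on this array only. Its endoderm markers averaged 9.67 against 11.30 and 11.47. ES 3 is the only array on the second slide, where its 9 tested fibroblast markers averaged 9.45 against 8.10 and 8.21 on the other ES arrays. The same markers, of 10 listed, averaged 5.98 to 7.21 on the DE arrays and 6.69 to 7.93 on the AFE arrays, below every ES array. In DE against ES 4 of the 9 fell and 1 rose, beside 21.7% and 22.2% of all genes. In AFE against ES 3 fell and 1 rose, beside 19.3% and 22.8%. The part of these other cells in the results was not tested.

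A level below is the log2 of a background-corrected, quantile-normalised probe intensity on an array, and it is compared between arrays only, never between probes. A change is a log2 difference of group means ± SE from limma with n = 3 arrays a group. The words "rose" and "fell" mark a limma p-value under 0.05 after Benjamini-Hochberg adjustment over all 10251 genes. Where an array is left out, normalisation, filter and adjustment were repeated on the arrays that remain. Without DE 3 this leaves 10065 genes and only DE 1 and DE 2 for DE, which correlate at 0.995. Adjusted p-values without DE 3 are therefore not comparable with those over all arrays. In these bulk samples, fewer cells of a type and less RNA per cell cannot be told apart.

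In DE against ES, 6 of 23 members rose and 2 fell. The hexokinase relative Hkdc1 rose most, at least 82.2-fold, together with Hk1, Pfkl, Tpi1 and the regulators Pfkfb2 and Pfkfb4, while the platelet-type phosphofructokinase Pfkp and the kinase Pdk3 fell. The risen members are 26.1% of those tested against a background of 22.2% of all genes that rose, and the fallen 8.7% against a background of 21.7% that fell. Their median change was 0.21, beside 0.01 over all genes. Without DE 3, 9 members rose and 3 fell, beside 25% and 24% of all genes.

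In AFE against DE, 5 of 23 members rose and 4 fell. Hk2, Pfkl, Tpi1, Pdk3 and the muscle enolase Eno3 rose, and Hk1, Hkdc1, Pgk1 and Pdk4 fell. Rises made up 21.7% of the members against 12.9% of all genes, and falls 17.4% against 10.1%, with a median of 0.23 beside 0.07 over all genes. Without DE 3 the counts were 7 and 7, beside 17.1% and 14% of all genes, and the members' median was -0.15.

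In AFE against ES, 6 members rose and 4 fell. Hkdc1, Pfkl, Pfkm, Tpi1, Eno3 and Pfkfb2 rose, and Pfkp, Pgk1, Pdk4 and Pdha1 fell. These are 26.1% against 22.8% of all genes for rises and 17.4% against 19.3% for falls, with a median of 0.31 beside 0.08 over all genes. Leaving DE 3 out of the shared estimate of the spread gave 8 rises and 5 falls, beside 27.7% and 23.4% of all genes. This comparison shares its arrays with the other 2, so the 3 are not independent.

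**Figure D1:**
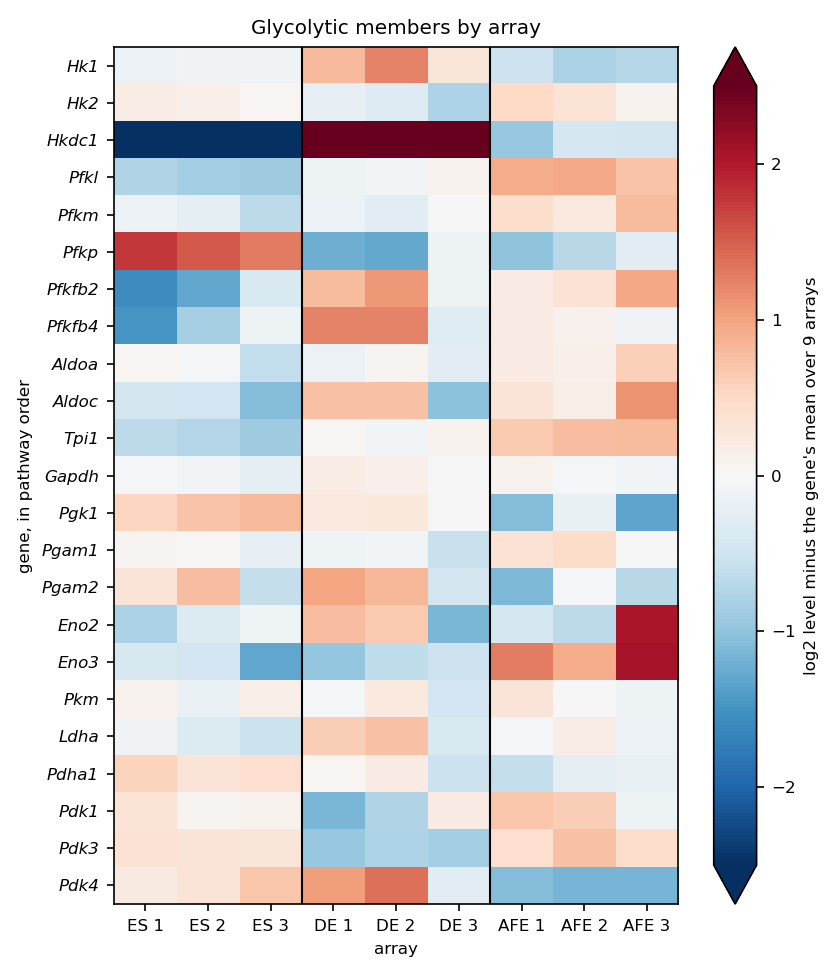
Colour gives the log2 level of each of the 23 tested members on each array minus the gene's mean over the 9 arrays, with genes in pathway order and white at 0. Colours stop at 2.5 in each direction. Hkdc1 lies beyond that range on every ES and DE array, Pfkp is highest on the ES arrays, and DE 3 differs in colour from DE 1 and DE 2 at Pfkfb4, Aldoc, Eno2, Ldha and Pdk4.

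**Figure D2:**
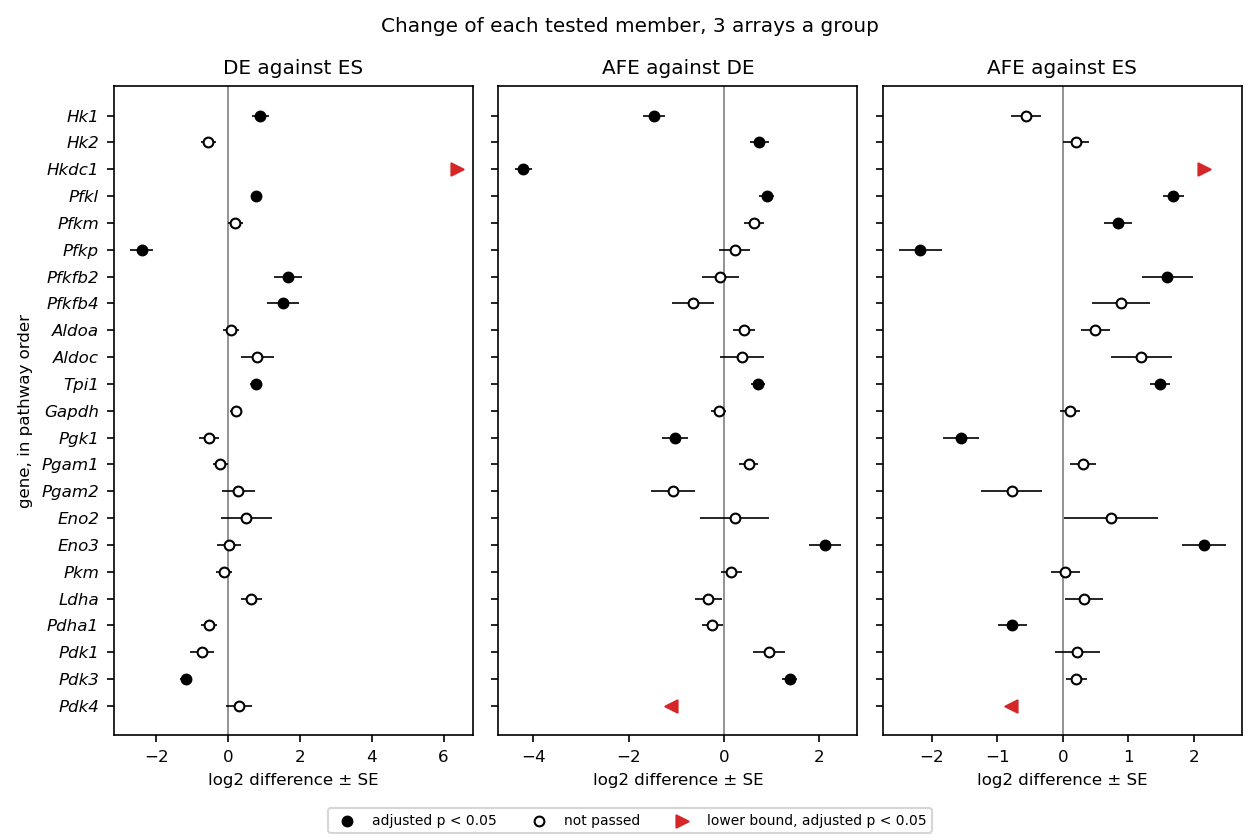
Each point is the log2 difference of group means of 1 tested member with its SE, 3 arrays a group, for the 3 comparisons, and filled points passed at an adjusted p under 0.05. Red triangles are lower bounds, with no error bar, where the lower group did not measure the gene, and the horizontal axes differ in range. Hkdc1 lies farthest from 0 in DE against ES and in AFE against DE (-4.21), and 8, 9 and 10 symbols are filled in the 3 panels.

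The first step separated the stages most. Hkdc1, a hexokinase domain protein that can phosphorylate glucose, stood at 4.91, 4.95 and 4.81 on ES 1 to 3, 11.48, 11.34 and 11.55 on DE 1 to 3 and 6.91, 7.42 and 7.41 on AFE 1 to 3. The groups did not overlap: the ES arrays were at background, the DE arrays all above 11, and the AFE arrays between them. Since no ES array measured it, its rise against ES has only a lower bound. An adjusted p beside a bound, here and below, is that of the difference of the log2 levels as they were and does not test the bound. Hkdc1 rose at least 82.2-fold in DE against ES (adjusted p = 1.12e-07) and then fell by 4.21 ± 0.19 in AFE against DE (adjusted p = 2.99e-06). AFE still exceeded ES at least 4.45-fold (adjusted p = 1.59e-05).

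Hk1, the broadly expressed mitochondria-bound hexokinase, lies next to Hkdc1 on chromosome 10. In GRCm38.p6 it spans chr10:62268855-62379920 and Hkdc1 spans chr10:62383137-62423711, with 3216 bases and 0 annotated genes between them. Its levels were 6.73, 6.79 and 6.78 on ES 1 to 3, 7.69, 8.11 and 7.19 on DE 1 to 3 and 6.35, 6.08 and 6.17 on AFE 1 to 3. Every DE array was above every ES array and every AFE array below them. Hk1 rose by 0.90 ± 0.23 in DE (adjusted p = 0.0112) and fell by 1.46 ± 0.23 in AFE against DE (adjusted p = 0.0025). Between AFE and ES the difference of -0.57 ± 0.23 did not pass (adjusted p = 0.0746), but it passed in 4 of 21 alternatives, among them without DE 2 (adjusted p = 0.0478) and without DE 3 (adjusted p = 0.0194). The neighbours thus had the same sign in DE against ES and in AFE against DE, which share the DE arrays. In AFE against ES their signs were opposite: Hkdc1 rose, and the difference of Hk1 was negative without passing.

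Hk2, the inducible hexokinase of growing cells, went the other way. It read 12.98, 12.93 and 12.85 on ES 1 to 3, 12.61, 12.49 and 12.03 on DE 1 to 3 and 13.31, 13.15 and 12.89 on AFE 1 to 3. All DE arrays lay below all ES arrays, by -0.55 ± 0.20, which narrowly missed the threshold (adjusted p = 0.0518) and passed in 10 of 21 alternatives (lowest adjusted p = 0.0253). In AFE against DE, Hk2 rose by 0.74 ± 0.20 (adjusted p = 0.0265), with no overlap between the groups. That call was lost without DE 2, AFE 1 or AFE 2 (adjusted p 0.0573, 0.089 and 0.0778) and in a fit to the 6 arrays compared (adjusted p = 0.0691).

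Because levels of different probes cannot be set against each other, the choice of isoform was tested as the change of the log2 ratio of 2 genes of the same step, array by array. The test was made for 13 pairs with the same design, and p-values were adjusted over all genes and pairs. In DE against ES, 6 pairs shifted, in AFE against DE 6 and in AFE against ES 8. Of all genes, 22.2% rose and 21.7% fell in DE against ES. In AFE against DE 12.9% rose and 10.1% fell, and in AFE against ES 22.8% and 19.3%. How many other gene pairs would shift was not computed, so the pair counts have no background of their own. Pairs that share a gene are also not independent. The ratio of Hk1 to Hk2 rose by 1.44 ± 0.24 in DE (adjusted p = 0.00123) and fell by 2.21 ± 0.24 in AFE against DE (adjusted p = 0.000357). In AFE it ended below ES by 0.76 ± 0.24 (adjusted p = 0.0291), a call lost without ES 1, ES 2, ES 3, AFE 1 or AFE 2 (adjusted p 0.0661 to 0.09). Shifts of ratios with Hkdc1 against ES are lower bounds, set with the same floor as for the gene. The ratio of Hk2 to Hkdc1 fell at least 120.1-fold in DE against ES and at least 3.88-fold in AFE against ES (adjusted p = 5.42e-07 and 0.000498), and it rose by 4.95 ± 0.30 from DE to AFE (adjusted p = 1.64e-05). Likewise the ratio of Hk1 to Hkdc1 fell at least 44.1-fold in DE and at least 6.59-fold in AFE against ES (adjusted p = 2.9e-06 and 0.000146), and it rose by 2.74 ± 0.33 in AFE against DE (adjusted p = 0.000637). Both other hexokinases thus stood lowest against Hkdc1 in DE.

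**Figure D3:**
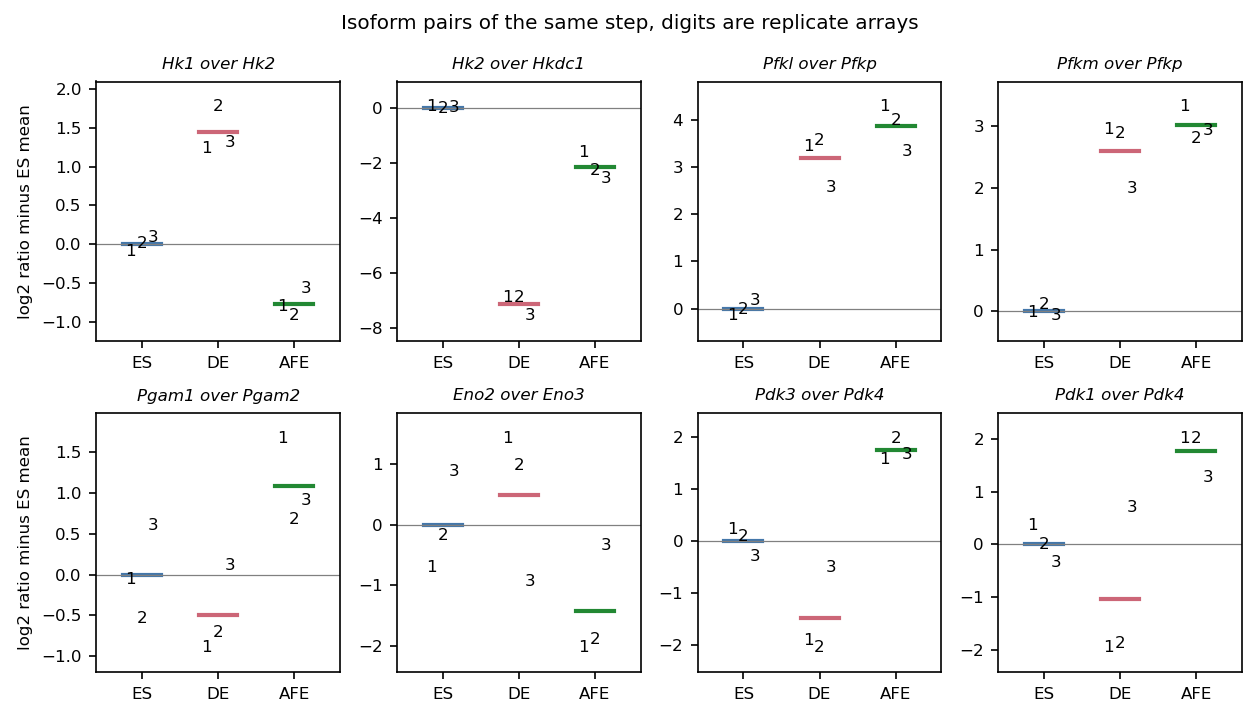
Each panel shows the log2 ratio of 2 isoforms of the same step on every array, minus the mean of the 3 ES arrays. Hkdc1 on the ES arrays and Pdk4 on the AFE arrays are at background, so their ratios there are bounds. Digits are the replicate numbers, bars are group means, and the vertical axes differ in range. The phosphofructokinase ratios over Pfkp lie above every ES array on all DE and AFE arrays, while the pairs with Pdk4 turn in opposite directions in DE 1, DE 2 and the AFE arrays.

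At the phosphofructokinase step the platelet-type isoform fell in DE and AFE while the liver type rose at each transition. Pfkp stood at 10.31, 10.07 and 9.84 on ES 1 to 3, 7.32, 7.27 and 8.41 on DE 1 to 3 and 7.55, 7.85 and 8.29 on AFE 1 to 3. All ES arrays were above 9.8 and all DE and AFE arrays below 8.5. Pfkp fell by 2.40 ± 0.33 in DE against ES (adjusted p = 0.000379) and by 2.18 ± 0.33 in AFE against ES (adjusted p = 0.000697), and it differed by 0.23 ± 0.33 between AFE and DE (adjusted p = 0.657). A second tested probe of Pfkp fell by 2.37 ± 0.21 and 2.03 ± 0.21 in the same comparisons with ES, and the third was above background on 0 arrays.

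Pfkl, the liver-type isoform, read 11.89, 11.79 and 11.74 on ES 1 to 3, 12.50, 12.57 and 12.72 on DE 1 to 3 and 13.57, 13.58 and 13.35 on AFE 1 to 3. The 3 groups were stacked without overlap. It rose by 0.79 ± 0.16 in DE against ES (adjusted p = 0.00328) and again by 0.90 ± 0.16 in AFE against DE (adjusted p = 0.00408), to 1.69 ± 0.16 above ES (adjusted p = 4.62e-05). Its dimmer probe rose by 0.83 ± 0.25 and 1.07 ± 0.25 in the comparisons with AFE, but its difference of 0.24 ± 0.25 in DE against ES did not pass (adjusted p = 0.462).

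Pfkm, the muscle-type isoform, stood at 10.52, 10.42 and 10.00 on ES 1 to 3, 10.51, 10.39 and 10.65 on DE 1 to 3 and 11.11, 10.90 and 11.46 on AFE 1 to 3. ES and DE arrays overlapped, and the AFE arrays were above them all. Pfkm rose by 0.84 ± 0.21 in AFE against ES (adjusted p = 0.0103). In AFE against DE, 0.64 ± 0.21 did not pass (adjusted p = 0.0546), though it passed in 5 of 21 alternatives, among them without ES 3 (adjusted p = 0.043) and without DE 3 (adjusted p = 0.0429). The second Pfkm probe rose by 0.74 ± 0.20 in that comparison (adjusted p = 0.0248), and the third passed in no comparison.

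Tested as ratios, Pfkl over Pfkp rose by 3.19 ± 0.34 in DE and 3.87 ± 0.34 in AFE against ES (adjusted p = 0.000101 and 3.56e-05). Pfkm over Pfkp rose by 2.61 ± 0.30 and 3.02 ± 0.30 (adjusted p = 0.000152 and 6.6e-05). Neither ratio shifted past the threshold between DE and AFE, with intervals at 95% confidence of -0.10 to 1.45 and -0.26 to 1.09. Pfkl over Pfkm rose by 0.85 ± 0.27 in AFE against ES (adjusted p = 0.0283), a call lost without ES 1, ES 2, AFE 1 or AFE 2 (adjusted p 0.0824 to 0.101) and with the mean of probes (adjusted p = 0.0743). In DE against ES this ratio moved by 0.59 ± 0.27 without passing (adjusted p = 0.101), and it passed in 3 of 20 alternatives, among them without AFE 3 (adjusted p = 0.0469).

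The Pfkfb enzymes make and remove a sugar phosphate that strongly activates phosphofructokinase. Pfkfb2, the heart type, stood at 5.66, 5.93 and 6.85 on ES 1 to 3, 8.02, 8.31 and 7.11 on DE 1 to 3 and 7.43, 7.59 and 8.20 on AFE 1 to 3. Every DE and AFE array was above every ES array, although ES 3 was the nearest to them. It rose by 1.67 ± 0.39 in DE (adjusted p = 0.00706) and by 1.60 ± 0.39 in AFE (adjusted p = 0.00933) against ES, and AFE and DE differed by -0.08 ± 0.39. Pfkfb4, first described in testis, read 6.68, 7.33 and 8.03 on ES 1 to 3, 9.38, 9.40 and 7.86 on DE 1 to 3 and 8.37, 8.26 and 8.07 on AFE 1 to 3. DE 1 and DE 2 were the highest arrays and DE 3 lay among the ES arrays. The rise of 1.53 ± 0.45 in DE (adjusted p = 0.0198) was lost without ES 1, ES 2, DE 1 or DE 2 (adjusted p 0.0582 to 0.079). Without DE 3, Pfkfb4 also fell in AFE against DE, by 1.17 (adjusted p = 0.0261), and rose in AFE against ES, by 0.89 (adjusted p = 0.032). The ratio of Pfkfb2 to Pfkfb4 passed in no comparison.

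**Figure D4:**
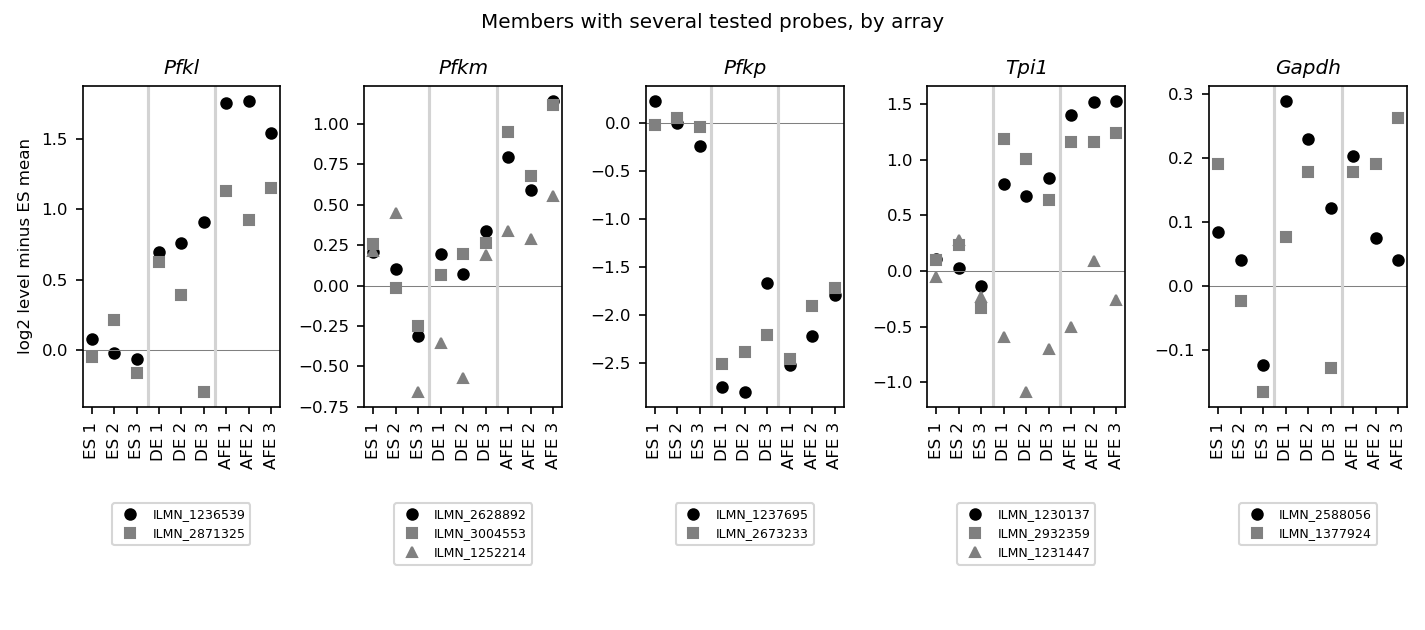
Log2 level of every tested probe of the 5 members with several, minus that probe's mean over the ES arrays, by array. Black points are the probe used for the gene, grey points the others, and the vertical axes differ in range. The Pfkp probes fall together, while 1 Tpi1 probe lies below its ES mean on the DE arrays where the other probes lie above it.

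Of the members from aldolase to enolase, Tpi1, Pgk1 and Eno3 passed in a comparison. Aldoa, the main aldolase of most tissues, ranged from 12.63 to 13.84 over the 9 arrays and passed in no comparison. Aldoc, the brain aldolase, stood at 8.39, 8.37 and 7.78 on ES 1 to 3, 9.59, 9.58 and 7.82 on DE 1 to 3 and 9.19, 8.99 and 9.97 on AFE 1 to 3. DE 1 and DE 2 were above all ES arrays and DE 3 was among them. Its difference of 0.82 ± 0.47 in DE against ES did not pass (adjusted p = 0.186), nor did 1.20 ± 0.47 in AFE against ES (adjusted p = 0.0648). Without DE 3, Aldoc rose by 1.41 in DE (adjusted p = 0.00451) and by 1.21 in AFE (adjusted p = 0.00542) against ES, and the ratio of Aldoa to Aldoc fell by 1.26 and 0.71 (adjusted p = 0.0028 and 0.0253).

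Tpi1, the triose phosphate isomerase, read 13.62, 13.54 and 13.38 on ES 1 to 3, 14.30, 14.19 and 14.35 on DE 1 to 3 and 14.92, 15.04 and 15.05 on AFE 1 to 3. The 3 groups did not overlap on the brightest probe. It rose by 0.77 ± 0.15 in DE against ES (adjusted p = 0.00333), by 0.72 ± 0.15 in AFE against DE (adjusted p = 0.0099) and by 1.49 ± 0.15 in AFE against ES (adjusted p = 8.25e-05). The probes of Tpi1 disagreed: the second rose by 0.95 ± 0.21 and 1.19 ± 0.21 against ES but not in AFE against DE (0.24 ± 0.21), and the third fell by 0.80 ± 0.23 in DE against ES (adjusted p = 0.018). With the mean of its probes, Tpi1 differed by 0.31 in DE against ES and 0.51 in AFE against DE, and neither passed (adjusted p = 0.177 and 0.0601).

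Gapdh, the oxidising step and a common reference gene, had differences of 0.21 ± 0.15, -0.11 ± 0.15 and 0.11 ± 0.15 in DE over ES, AFE over DE and AFE over ES. None of them passed, and its brightest probe ranked between 11 and 40 from the top of 25697 on every array. Pgk1, the first step that yields ATP, stood at 6.67, 6.84 and 6.94 on ES 1 to 3, 6.36, 6.40 and 6.12 on DE 1 to 3 and 5.04, 5.94 and 4.81 on AFE 1 to 3. The AFE arrays were below all others and only 1 of them was above background. This only tested probe of Pgk1 was dim in all groups, as the lowest detected level of an array ran from 5.02 (ES 3) to 5.42 (AFE 3). Pgk1 fell by 1.55 ± 0.28 in AFE against ES (adjusted p = 0.00185) and by 1.03 ± 0.28 in AFE against DE (adjusted p = 0.0261). Since both falls end near background, their size is uncertain, and how well the probe reads the gene was not tested. The second call was lost without DE 1, DE 2, AFE 1 or AFE 3 (adjusted p 0.0659 to 0.087) and with no background correction, where the difference was -0.36 (adjusted p = 0.0574), as well as in a fit to the 6 arrays compared (adjusted p = 0.0691). In DE against ES, -0.53 ± 0.28 did not pass (adjusted p = 0.152), and it passed in 2 of 21 alternatives, 1 of them without AFE 2 (adjusted p = 0.0438).

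At the mutase step Pgam1, the form of most tissues, ranged from 10.79 to 11.79 and passed in no comparison. Pgam2, the muscle form, read 7.36, 7.80 and 6.43 on ES 1 to 3, 8.02, 7.87 and 6.57 on DE 1 to 3 and 5.92, 7.00 and 6.34 on AFE 1 to 3. Its groups overlapped in each comparison. AFE against DE gave -1.07 ± 0.47 (adjusted p = 0.131), and without DE 3 Pgam2 fell by 1.53 (adjusted p = 0.0199). The ratio of Pgam1 to Pgam2 rose by 1.59 ± 0.41 in AFE against DE (adjusted p = 0.0208), which was lost without DE 1, DE 2 or AFE 1 (adjusted p 0.0684 to 0.0753). In AFE against ES, 1.09 ± 0.41 did not pass (adjusted p = 0.0557), but it passed in 9 of 20 alternatives, among them without ES 3 (adjusted p = 0.0337) and without DE 3 (adjusted p = 0.0287).

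Eno3, the muscle enolase, stood at 9.05, 8.98 and 8.17 on ES 1 to 3, 8.50, 8.82 and 8.95 on DE 1 to 3 and 10.73, 10.39 and 11.55 on AFE 1 to 3. All AFE arrays were above all others, and ES and DE overlapped. It rose by 2.13 ± 0.33 in AFE against DE (adjusted p = 0.00243) and by 2.16 ± 0.33 in AFE against ES (adjusted p = 0.000825), and differed by 0.03 ± 0.33 between DE and ES (adjusted p = 0.962). Beside it, the 5 tested heart and skeletal muscle markers, of 9 listed, averaged 6.58 to 8.08 on the AFE arrays, 5.08 to 5.84 on DE and 6.16 to 6.93 on ES, with the highest value on AFE 3. Of these 5 markers, 4 rose and 0 fell in AFE against DE, beside 12.9% and 10.1% of all genes. In AFE against ES 1 rose and 1 fell, beside 22.8% and 19.3%. Actc1, the cardiac actin, read 8.03, 8.43 and 11.79 on AFE 1 to 3. Of the skeletal muscle genes listed, Myod1 and Ckm were above background on 0 arrays, but Myog was on 1 ES, 2 DE and 2 AFE arrays. The part of muscle cells in the level of Eno3 was not tested.

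Eno2, the neuronal enolase, read 6.80, 7.25 and 7.50 on ES 1 to 3, 8.38, 8.25 and 6.46 on DE 1 to 3 and 7.17, 6.95 and 9.65 on AFE 1 to 3. AFE 3 was the highest array and DE 3 the lowest. No comparison passed, and each SE was 0.72. The 5 tested neuron markers, of 6 listed, averaged 5.42 to 5.51 on the AFE arrays, with AFE 3 at 5.45. They averaged 5.68 to 5.87 on DE and 6.9 to 7.1 on ES. The part of neurons in the level of Eno2 was not tested. The ratio of Eno2 to Eno3 missed the threshold in AFE against DE at -1.90 ± 0.69 (adjusted p = 0.0747), and it passed in 4 of 20 alternatives, among them without DE 3 (-2.62, adjusted p = 0.00816) and without AFE 3 (-2.43, adjusted p = 0.0428). Against ES, the difference of -1.42 ± 0.69 in AFE (adjusted p = 0.124) passed in 3 of 20 alternatives, 1 of them without DE 3 (adjusted p = 0.0432). A probe annotated to Eno1b, a near-identical copy of Eno1 that was looked up after values were seen, ranged from 10.05 to 11.25 and passed in no comparison.

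Pyruvate, made by the muscle-type kinase Pkm, stands at the branch between lactate and the mitochondria. Pkm itself ranged from 12.87 to 13.68 and its differences were -0.12 ± 0.23, 0.16 ± 0.23 and 0.04 ± 0.23 in DE over ES, AFE over DE and AFE over ES. The deposited probe is not assigned to either splice form of Pkm, so the choice between them is not analysed here. Ldha, which reduces pyruvate to lactate, stood at 14.41, 14.15 and 13.96 on ES 1 to 3, 15.12, 15.23 and 14.13 on DE 1 to 3 and 14.48, 14.68 and 14.35 on AFE 1 to 3. DE 1 and DE 2 were above every other array and DE 3 lay at the level of ES. Its difference of 0.65 ± 0.29 in DE missed the threshold (adjusted p = 0.094). Without DE 3, Ldha rose by 0.97 in DE against ES (adjusted p = 0.003) and fell by 0.65 in AFE against DE (adjusted p = 0.0328).

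On the mitochondrial side, Pdha1, the catalytic alpha subunit of pyruvate dehydrogenase, read 12.38, 12.15 and 12.24 on ES 1 to 3, 11.87, 12.03 and 11.29 on DE 1 to 3 and 11.24, 11.59 and 11.64 on AFE 1 to 3. All AFE arrays were below all ES arrays. It fell by 0.77 ± 0.22 in AFE against ES (adjusted p = 0.0204), a call lost without ES 1 or AFE 1 (adjusted p 0.077 and 0.0739), and in DE against ES -0.53 ± 0.22 did not pass (adjusted p = 0.0819). Its partner Pdhb, the beta subunit and no member of the set, fell by 1.22 ± 0.17 in DE and 1.43 ± 0.17 in AFE against ES (adjusted p = 0.00043 and 0.00018). Of the 6 tested genes on the list of pyruvate entry and the dehydrogenase complex, Pdhb was the 1 that fell and 0 rose in each comparison with ES. Of all genes, 21.7% fell in DE and 19.3% in AFE against ES, and 22.2% and 22.8% rose.

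The kinases that inactivate the complex changed in different directions. Pdk3 stood at 9.82, 9.78 and 9.76 on ES 1 to 3, 8.52, 8.70 and 8.61 on DE 1 to 3 and 9.88, 10.20 and 9.90 on AFE 1 to 3. The DE arrays were below all others, and the AFE arrays were all slightly above the ES arrays. Pdk3 fell by 1.18 ± 0.16 in DE against ES (adjusted p = 0.000407) and rose by 1.38 ± 0.16 in AFE against DE (adjusted p = 0.000522), and AFE and ES differed by 0.20 ± 0.16 (adjusted p = 0.34).

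Pdk4, the kinase induced by fasting and fatty acids, read 5.92, 6.01 and 6.39 on ES 1 to 3, 6.75, 7.07 and 5.44 on DE 1 to 3 and 4.62, 4.54 and 4.54 on AFE 1 to 3. It was above background on all ES and DE arrays and on 0 AFE arrays. It fell at least 2.14-fold in AFE against DE (adjusted p = 0.00708) and at least 1.72-fold in AFE against ES (adjusted p = 0.00811). Between DE and ES, 0.31 ± 0.37 missed the threshold (adjusted p = 0.521). Without DE 3, Pdk4 rose by 0.81 (adjusted p = 0.00872).

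Pdk1, a hypoxia-responsive kinase, stood at 10.64, 10.38 and 10.40 on ES 1 to 3, 9.17, 9.56 and 10.51 on DE 1 to 3 and 11.00, 10.91 and 10.18 on AFE 1 to 3. DE 1 and DE 2 were the lowest arrays and DE 3 lay with ES. No comparison passed over all arrays. Without DE 3, Pdk1 fell by 1.11 in DE against ES (adjusted p = 0.00729) and rose by 1.34 in AFE against DE (adjusted p = 0.00538), and the latter also passed without AFE 3 (adjusted p = 0.0425).

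The ratio of Pdk3 to Pdk4 fell by 1.49 ± 0.40 in DE against ES (adjusted p = 0.0133), a call lost without ES 1 (adjusted p = 0.0521). Since no AFE array measured Pdk4, its ratios in AFE have only a lower bound. Pdk3 over Pdk4 rose at least 5.59-fold in AFE against DE (adjusted p = 0.000667) and at least 1.98-fold in AFE against ES (adjusted p = 0.00671). Pdk1 over Pdk4 rose at least 4.14-fold in AFE against DE (adjusted p = 0.0124), lost without DE 2 (adjusted p = 0.051). In AFE against ES its rise of at least 2.01-fold (adjusted p = 0.0489) was lost without any of the 6 ES and AFE arrays (adjusted p 0.0588 to 0.135), with no background correction, with cyclic loess and with no filter (adjusted p = 0.184, 0.0813 and 0.0879). In DE against ES, where both genes were measured, this ratio passed only without DE 3 among the arrays left out (-1.92, adjusted p = 0.00109). Pdk1 over Pdk3 passed in no comparison, with an interval at 95% confidence of -0.36 to 1.26 in DE against ES.

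The promoters of the members that changed at least 2-fold in DE against ES and have 1 start in the promoter table are shown, since several genes on the hypoxia list described next also rose in DE. These are the 250 bases before the start from RefSeq on GRCm38.p6, 5′ to 3′ on the gene's strand. The windows of Hkdc1, Pfkp and Pfkfb4 lie inside the annotated spans of these genes, which begin further upstream. The sequence before the upstream end of those spans is not shown, and the match counts of these 3 genes are counts within the span. Capitals mark the cores ACGTG and GCGTG of the hypoxia response element, searched on both strands, so CACGC is GCGTG read on the other strand.
Hkdc1 chr10:62422458-62422707, minus strand: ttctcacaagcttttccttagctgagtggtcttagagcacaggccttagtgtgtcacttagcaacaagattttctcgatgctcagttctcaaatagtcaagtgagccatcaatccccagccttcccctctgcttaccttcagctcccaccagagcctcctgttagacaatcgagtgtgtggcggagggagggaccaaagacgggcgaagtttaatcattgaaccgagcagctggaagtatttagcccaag
Pfkp chr13:6648772-6649021, minus strand: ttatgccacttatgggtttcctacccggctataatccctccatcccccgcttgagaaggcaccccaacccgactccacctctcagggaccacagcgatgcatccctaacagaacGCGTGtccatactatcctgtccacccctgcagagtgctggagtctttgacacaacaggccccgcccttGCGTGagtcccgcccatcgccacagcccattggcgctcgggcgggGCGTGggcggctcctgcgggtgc
Pfkfb4 chr9:108991652-108991901, plus strand: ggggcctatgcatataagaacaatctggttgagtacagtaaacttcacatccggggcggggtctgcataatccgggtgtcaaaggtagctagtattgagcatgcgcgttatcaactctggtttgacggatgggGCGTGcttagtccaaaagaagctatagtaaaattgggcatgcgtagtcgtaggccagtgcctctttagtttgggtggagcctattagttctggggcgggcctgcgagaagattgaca
Pdk3 chrX:93832151-93832400, minus strand: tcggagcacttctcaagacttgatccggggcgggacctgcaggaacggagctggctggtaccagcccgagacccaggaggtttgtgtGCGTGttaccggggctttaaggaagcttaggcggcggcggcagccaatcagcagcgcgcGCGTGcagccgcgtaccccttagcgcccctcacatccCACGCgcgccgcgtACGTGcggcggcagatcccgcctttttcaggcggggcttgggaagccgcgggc
The Hkdc1 window holds 0 matches, that of Pfkfb4 holds 1 GCGTG, that of Pfkp 3 GCGTG and that of Pdk3 3 GCGTG and 1 ACGTG. Of 32851 promoter windows of this length, 38.6% hold either core, 28.2% GCGTG and 16.6% ACGTG. The matches are letters in these windows and no test of binding, and they stand in genes that rose and in genes that fell. Pfkfb2 has 3 starts in the table and is not shown.

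Genes around the pathway were taken from lists chosen by function. Over all genes tested, 22.2% rose and 21.7% fell in DE against ES. The shares were 12.9% and 10.1% in AFE against DE and 22.8% and 19.3% in AFE against ES. The transport list had 6 tested genes of 10, of which 5 rose in DE against ES, 2 in AFE against DE and 5 in AFE against ES, with 0 falls and medians of 0.73, 0.16 and 1.30. Slc2a1, the basal glucose transporter, rose at both transitions, by 0.61 ± 0.22 and 0.79 ± 0.22 (adjusted p = 0.049 and 0.0313), and Slc2a3, a high-affinity transporter, rose by 0.84 ± 0.27 in DE against ES. Slc2a4, the insulin-responsive transporter, rose at least 1.90-fold in AFE against DE (adjusted p = 0.00331), and no DE array measured it. Slc16a3, a lactate exporter, rose by 2.11 ± 0.55 in DE and 2.39 ± 0.55 in AFE against ES (adjusted p = 0.0115 and 0.0067), with DE 3 at 5.81 against 7.53 and 8.39 on DE 1 and DE 2. Emb, which escorts lactate transporters to the membrane, rose by 6.52 ± 1.46 in DE against ES (adjusted p = 0.00567), but read 5.91 and 6.14 on ES 1 and ES 2 and 12.53 on ES 3.

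Most tested glycogen genes rose against ES. Of 6 tested genes of 11, 5 rose in DE and 5 in AFE against ES, with medians of 1.47 and 2.02. Of all genes, 22.2% and 22.8% rose in these comparisons. None of the 6 passed in AFE against DE. Pygl, the liver glycogen phosphorylase, stood at 6.13, 5.85 and 6.89 on ES 1 to 3, 10.38, 10.26 and 8.97 on DE 1 to 3 and 10.27, 9.98 and 11.09 on AFE 1 to 3, so that all DE and AFE arrays were above all ES arrays. It rose by 3.58 ± 0.44 in DE and 4.16 ± 0.44 in AFE against ES (adjusted p = 0.000214 and 8.97e-05). Pygb, the brain phosphorylase, rose by 1.88 ± 0.23 and 2.23 ± 0.23, and Pgm1, which feeds glycogen-derived glucose phosphate into glycolysis, by 1.61 ± 0.19 and 1.97 ± 0.19. Gyg, the primer protein of glycogen, rose by 1.33 ± 0.37 and 2.08 ± 0.37. The synthase Gys1 passed in no comparison (-0.21 ± 0.26 in DE against ES).

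Of 15 tested hypoxia response genes, 9 rose and 1 fell in DE against ES, and 2 rose and 0 fell in AFE against DE. In AFE against ES 8 rose and 2 fell, and the medians in this order were 0.97, 0.11 and 1.72. Of all genes, 22.2%, 12.9% and 22.8% rose, so the share that rose in AFE against DE was close to that of all genes. P4ha1 and P4ha2, collagen prolyl hydroxylases, rose by 2.31 ± 0.45 and 2.00 ± 0.46 in DE, Vegfa, the endothelial growth factor, by 1.99 ± 0.42 and the oxygen sensor Egln1 by 1.68 ± 0.18. Ddit4 and Higd1a rose in AFE against DE, by 1.63 ± 0.23 and 1.07 ± 0.31. Arnt, the partner of the HIF factors, fell by 0.99 ± 0.23 in DE, and Hif1a and Epas1 themselves did not pass in any comparison. This list holds Hif1a, Epas1 and Arnt beside genes tied to hypoxia in other settings, so its counts are not counts of target genes alone. The members Pdk1 and Ldha are often counted with it. They passed in DE against ES only in the settings that left out DE 3, Ldha higher and Pdk1 lower in DE.

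**Figure D5:**
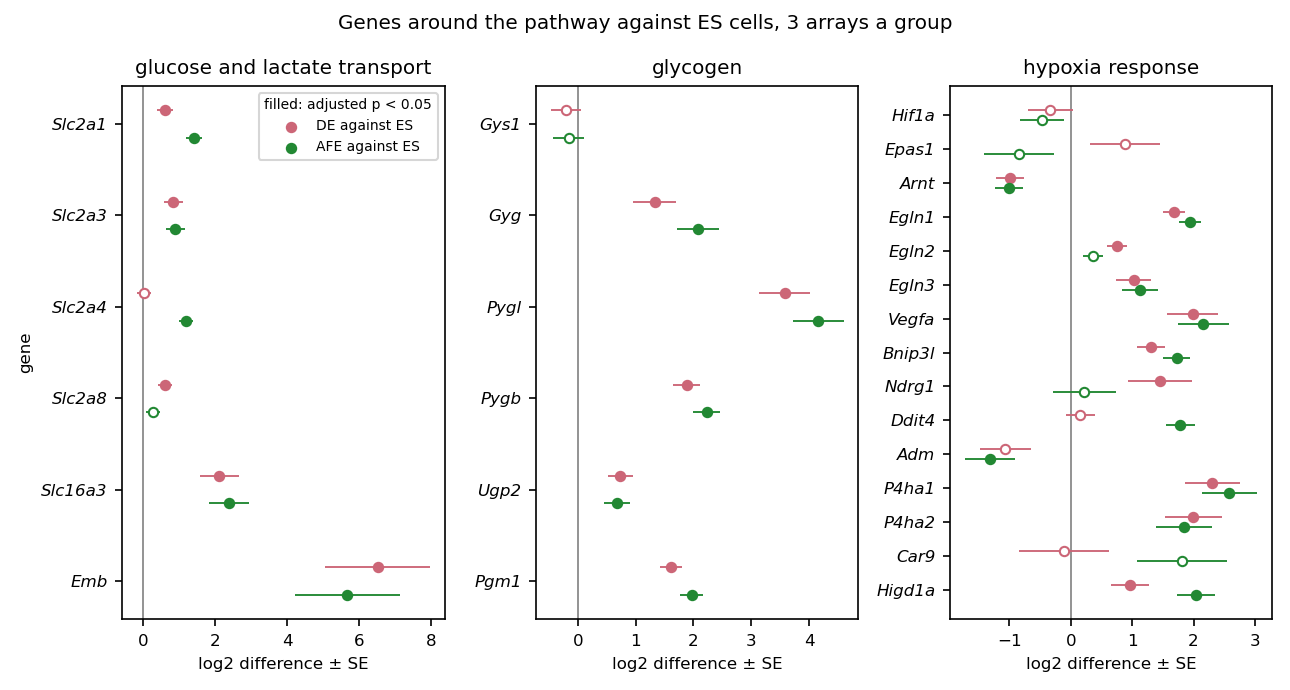
Log2 differences with their SE of the tested genes of 3 lists around the pathway, 3 arrays a group, for DE (red) and AFE (green) against ES. Filled points passed at an adjusted p under 0.05, and the horizontal axes differ in range. The glycogen genes other than Gys1 lie above 0 in both comparisons, and Emb has the widest error.

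Side branches were tested through few genes each. On the list of regulators, 0 of 5 tested genes rose and 2 fell in DE against ES, beside 22.2% and 21.7% of all genes. Tigar, which lowers the activator of phosphofructokinase, was among those that fell. It stood at 7.80, 7.60 and 7.59 on ES 1 to 3, 5.41, 5.00 and 5.46 on DE 1 to 3 and 5.48, 5.32 and 6.22 on AFE 1 to 3, and fell by 2.37 ± 0.25 in DE and 1.99 ± 0.25 in AFE against ES (adjusted p = 9.46e-05 and 0.000269). The RNA-binding protein Lin28a fell by 0.71 ± 0.26 in DE and rose by 1.27 ± 0.26 in AFE against DE, and Esrra fell by 0.83 ± 0.21 in AFE against DE and Sirt6 by 1.34 ± 0.42 in AFE against ES. Among other isozymes, 2 of 9 listed genes were tested, and Ldhc, the testis lactate dehydrogenase, fell at least 7.67-fold in DE and at least 6.64-fold in AFE against ES (adjusted p = 3.75e-06 and 3.07e-06). Of 4 tested gluconeogenesis genes, G6pc3 rose by 1.40 ± 0.24 and Fbp2 fell at least 2.04-fold in DE against ES.

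In the pentose phosphate list, 4 of 8 genes were tested. Rpia rose by 0.65 ± 0.17 in DE against ES, and Pgls, the lactonase of the oxidative arm, rose by 1.02 ± 0.24 in AFE against DE and 1.49 ± 0.24 in AFE against ES. Tkt rose by 0.57 ± 0.17 and Taldo1 fell by 0.92 ± 0.28 in AFE against ES. Of 4 tested genes of the serine and glycine branch, Shmt1 fell by 1.85 ± 0.43 in DE against ES, and it and Psat1 fell in AFE against ES, by 1.91 ± 0.43 and 1.04 ± 0.35. Gpd2, the mitochondrial glycerol phosphate dehydrogenase and the 1 tested gene of its shuttle, fell by 1.16 ± 0.21 in DE and 1.43 ± 0.21 in AFE against ES.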

How the data were processed

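Mouse bead arrays of 9 samples in 3 groups were analysed from the deposited files. The deposited intensity of a probe is its linear bead signal, with no normalisation between arrays, per the file headers. The deposited detection p-value compares each probe with the negative control beads of its array, per the file headers. The log2 values of the processed table were deposited by the authors with a method and scanner software not given in the sources used here. In it, 8 of 9 columns rank the probes exactly as an intensity column and 7 as their own. The column labelled ES 3 ranks them as ES 2 does, and the column labelled ES 2 as none. That unmatched column had its highest rank correlation with DE 2 (Spearman 0.926), although it is labelled ES. Intensities were therefore used, and the table is an alternative.

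With R 4.3.3 and limma 3.58.1, neqc removed the background estimated from the detection p-values, added 16 as offset, applied quantile normalisation and the log2. Among 25697 probes, 23978 have 1 symbol, 0 several and 1719 none, and 23962 matched RefSeq by Entrez ID. Kept were probes whose detection p was under 0.05 on 3 or more arrays (14206 with a symbol), and the brightest probe stood for each of 10251 genes. All 9 arrays entered 1 linear model of the groups with lmFit and eBayes. Log2 ratios of 13 isoform pairs were fitted likewise, with the prior variance of the genes doubled for a difference of 2 genes. On data simulated for DE against ES over 10251 genes, the test recovered 42% of 100 genes set to 2-fold and 84% of 100 set to 4-fold, with 7 other genes called. Only those genes were changed there, against 4503 called in the data, and the noise was independent and normal, with no array apart. The adjustment thus works at another threshold, and these shares are not the recovery in the data. Median intensities ran from 93.9 to 151 and detected probes from 12628 to 14352 per array, and the number of arrays limits the precision. For a gene above background on 0 arrays of its lower group, "at least" sets the higher mean against the lowest detected level of each array or the gene's own level, if that was higher. The adjusted p given with it comes from the fit to the levels without that floor, background readings included.

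Named genes are all members, all pairs of tested members of the same step, and from each other list up to 3 genes with the largest change past the threshold per comparison, and probes called differently. Egln1, Arnt, Gys1, Hif1a, Epas1, Eno1b and the cell type markers given by name lie outside that rule and were picked with their values known. The members, lists and tests were chosen with earlier results of these data known. Alternatives were no background correction, cyclic loess, the authors' processed table, no filter or a detection p under 0.01, each probe alone or the mean of probes, a fit to the 6 arrays of a comparison, robust moderation with an intensity trend, the replicate block and leaving out each array. Added after the data were seen were the processed table without its unmatched column and all arrays without replicate 3. Figures were drawn with matplotlib 3.10.9.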

Additional observations from a re-analysis of the deposited data

How the results depend on the processing

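Of 27 member changes that passed, 8 passed in all alternatives, and of 20 isoform pair shifts 5 did. Several of the others were lost only with the authors' processed table, among them Hkdc1, Pfkl, Pfkp, Pfkfb2 and Pdk3 in DE against ES. So were the ratio shifts of Pfkl over Pfkp and Pfkm over Pfkp in that comparison. With the authors' processed table, 663, 892 and 1334 genes passed in DE over ES, AFE over DE and AFE over ES (4503, 2358 and 4319 with the intensities), members numbered 0, 3 and 5 (8, 9 and 10), and pairs 1 and 4 in DE and AFE against ES (6 and 8). There the difference of Hkdc1 was -0.0054 and that of Hk2 over Hkdc1 0.0149 in AFE against ES. Without its unmatched column, which is labelled ES 2 and ranks closest to DE 2, members numbered 8, 9 and 10. Leaving out replicate 3 of each group gave 14 members in DE against ES and 19 in AFE against DE, 10 pairs in DE against ES and 4678 genes in AFE against DE. Without these arrays Aldoc differed by -0.50 (adjusted p = 0.0202 of limma) and Eno2 differed by -1.27 (adjusted p = 0.00138) in AFE against DE, where they had a positive difference over all arrays. The cause was not tested. Leaving out 1 array at a time gave 1367 (without DE 2) to 3128 (without DE 3) genes and 7 to 14 members in AFE against DE, the most without DE 3, with 1442 genes without DE 1 and 1562 without AFE 2. It gave 5 (without ES 1, ES 2, AFE 1 or AFE 2) to 11 (without DE 3) pairs in AFE against ES. Arrays with the same replicate number did not deviate together (9 correlations of -0.14 to 0.07), and the replicate block gave 9, 9 and 10 members, 6, 6 and 6 pairs and 4288, 2097 and 4161 genes. In AFE against ES the block ended the calls of Hk1 over Hk2, Pfkl over Pfkm and Pdk1 over Pdk4 (adjusted p = 0.0506, 0.0514 and 0.0779). Differences of members that did not pass changed sign 34 times over 14 results. With 3 arrays a group, a difference of a member that misses the threshold is not shown to be absent. The calls of genes around the pathway were not followed through the alternatives. How they depend on the processing was not tested, also where they lie near the threshold. Examples are Slc2a1 and Lin28a in DE against ES (adjusted p = 0.049 and 0.0475 of limma).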
